A study of Rattus norvegicus with 3 samples.

Results

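Cytosolic ribosomal protein (RP) genes encode the protein part of the ribosome, the particle that makes protein in the cytoplasm. The Rpl genes encode proteins of the large subunit, the Rps genes those of the small subunit, and Rplp0, Rplp1 and Rplp2 encode the stalk that recruits translation factors. Their messenger RNAs (mRNAs) are abundant, short and cytoplasmic, most begin with a pyrimidine tract (the 5′ terminal oligopyrimidine or TOP motif) through which mTORC1 sets their translation, and striated muscle also makes a paralogue of Rpl3, Rpl3l. In preparations of nuclei, RP mRNA can come from the nucleus or from cytoplasmic RNA carried along.

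The members were taken by symbol: Rpl or Rps followed by a number, with or without the letters a, l, x or y and a further number, and Rplp0, Rplp1, Rplp2 and Rpsa. This gave 93 rows with 84 symbols among the 22250 genes of the tables, of which 56 were large subunit or stalk rows and 37 small subunit rows. The heart apex of rats at 12 months of age was measured by single nucleus RNA sequencing (snRNAseq) in 3 genotypes, with 1 library for each. WT rats carried the wild-type Dmd gene, BMD rats (R-BMDdel45-47) an in-frame deletion in Dmd that leaves a shortened dystrophin, as in Becker dystrophy, and DMD rats (R-DMDdel52) a deletion that models Duchenne dystrophy. BMD rats were made with CRISPR/Cas9 in Sprague Dawley oocytes, apexes held both ventricles and part of the septum, and nuclei were sorted on DAPI, a DNA stain, without a cell type marker. Neither the sex of these animals nor whether 1 or several rats gave each library was stated in the sources used here, so every difference between genotypes below is a difference between single libraries, with no replicate check and no test.

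The 24664 nuclei held 17160871, 14971887 and 13766688 unique molecular identifiers (UMIs, 1 per captured RNA molecule) for WT, BMD and DMD, with medians of 1212.5, 1486.5 and 1229 UMIs per nucleus. Clusters built without RP genes gave 7 classes named from markers, each written with "-like", and 1 further cluster called S100a9-led by its leading gene. Nuclei of unnamed clusters entered only the sums over all nuclei. In cardiomyocyte-like nuclei (2030, 1532 and 1066) the 9 cardiomyocyte markers with a row summed to between 21902 and 24247 counts per 1e+06 UMIs (CPM). Every class held some UMIs of all 9. Their sums were between 440 and 4940 CPM in the other named classes, and between 9178 and 15907 CPM in S100a9-led nuclei. Between 12 and 20 nuclei per pair of libraries shared a barcode. Barcodes with at most 50 UMIs were taken as free RNA, meaning RNA outside nuclei. Values given as a series of 3 are in the order WT, BMD, DMD. Intervals are at 95%, exact Poisson for levels and shares, and cover counting error only.

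To show the tract that many members share, 30 bases around the annotated start are printed for 3 members that were low in cardiomyocyte-like nuclei of both mutant libraries (Rpl35, Rpl37a and Rpl34), for Rplp0, which was not, and for the paralogue pair Rpl3 and Rpl3l. Sequences are from RefSeq (GRCr8, another build than the rn6 of the counts), 5′ to 3′ on the strand of the gene, with the start at base 16. Capitals mark the longest unbroken run of C and T that reaches within 5 bases of the start.
Rpl35: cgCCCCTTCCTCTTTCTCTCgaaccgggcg
Rpl37a: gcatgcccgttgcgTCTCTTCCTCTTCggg
Rpl34: CCCCTTCCTTTTCCTCTTCCggggacggtg
Rplp0: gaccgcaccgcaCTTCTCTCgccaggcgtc
Rpl3: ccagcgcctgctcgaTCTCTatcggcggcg
Rpl3l: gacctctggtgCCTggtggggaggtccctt
These windows lie at chr3:43165907-43165936 (Rpl35, minus strand), chr9:81748076-81748105 (Rpl37a, plus), chr2:221962269-221962298 (Rpl34, minus), chr12:46718376-46718405 (Rplp0, minus), chr7:113507976-113508005 (Rpl3, minus) and chr10:14258431-14258460 (Rpl3l, plus), each spanning the last bases before the gene and the first of its first exon. The table of promoters matched 64 of the 84 symbols. A run of at least 7 pyrimidines in this position, searched on the strand of the gene only, was in 41 of the 64 (64.1%), against 13.2% of all 33469 promoters. A start at C followed by 4 pyrimidines, which can overlap such a run, was in 32.8% of members and 2.63% of all promoters. Among members with a single row and at least 50 UMIs in cardiomyocyte-like nuclei, the 33 with a run had a median log2 ratio over WT of -0.03 in BMD and -0.09 in DMD, and the 19 without had -0.05 and -0.07. At least 1.5-fold lower in BMD were 10 of the 33 with a run and 1 of the 19 without, against 4.97% of all genes with at least 50 UMIs there. In DMD the counts were 6 and 3, against 6.11% of all genes. The printed members Rpl35, Rpl37a and Rpl34 had runs of 18, 13 and 20 bases. Other members low in both mutant libraries had shorter ones, 10 in Rpl23, 9 in Rps28 and Rps7 and 6 in Rpl24. A link between the run and these ratios was not tested.

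Of the 93 rows, 78 had at least 50 UMIs over all nuclei, 9 had fewer and 6 had 0. Both rows of Rpl7a, 1 of the 4 rows of Rpl21, and Rpl8, Rpl35a and Rpl38 were listed at 0 in nuclei and in free RNA of every library, and Rps6 (4 UMIs), Rplp2 (3), Rpl39 (6) and Rpl39l (4) were close to it. Every cell uses these genes apart from Rpl39l, so a listing at or near 0 is no measure of their transcript. RP genes have many processed pseudogenes and copies that share reads with them, and 7 symbols stood on 16 rows, so the level of any single row is uncertain in a way that its counting interval does not cover. The 10 members with the most UMIs over all nuclei, by the mean CPM of the libraries, were Rpl41, Rpsa, Rplp0, Rpl23, Rpl37a, Rpl14, Rps7, Rplp1, Rpl10 and Rps28. They held 39.8%, 34.6% and 38.6% of RP UMIs.

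RP genes took a small share of nuclear UMIs, and the share, with free RNA included, was smallest in cardiomyocyte-like nuclei of every library. There WT had 0.184% (0.180 to 0.187), BMD 0.149% (0.146 to 0.152) and DMD 0.149% (0.145 to 0.152), or 5.74, 6.48 and 5.41 RP UMIs per nucleus. Fibroblast-like nuclei had 0.714%, 0.378% and 0.535%. Endothelial-like nuclei had 0.691%, 0.427% and 0.666%. Fibroblast-like and endothelial-like nuclei thus stood at more than double the cardiomyocyte-like share in each library. Shares were 0.403%, 0.247% and 0.347% in pericyte or smooth muscle-like nuclei, and 0.653%, 0.357% and 0.465% in macrophage-like nuclei. They were 0.655%, 0.487% and 0.575% in lymphatic-like nuclei and 0.857%, 0.516% and 0.689% in T or B cell-like nuclei. WT was highest and BMD lowest in 6 of the 8 classes, while the BMD and DMD intervals overlapped in cardiomyocyte-like nuclei. The large subunit and stalk rows held 0.124%, 0.0992% and 0.0983% of cardiomyocyte-like UMIs, and the small subunit rows 0.0597%, 0.0499% and 0.0502%.

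**Figure D1:**
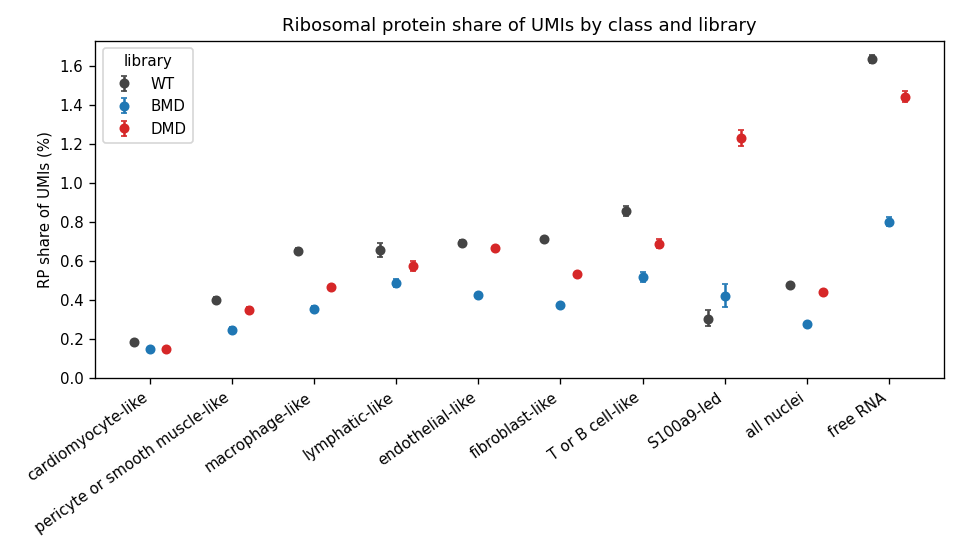
Share of UMIs on RP genes (y axis, percent) in each class of nuclei, in all nuclei and in free RNA (x axis), with 1 point per library and bars for the exact Poisson 95% interval. Free RNA stands highest in WT at 1.63%, cardiomyocyte-like nuclei stand lowest, and the S100a9-led nuclei of DMD lie apart from those of WT and BMD.

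One cluster went the other way. Its leading genes were S100a9, S100a8, Camp, Il1b and Ngp, several of which are known from granulocytes, so it was left without a cell type name though 6 of 7 monocyte markers were raised there. Its RP share was 0.304% over 34 nuclei of WT, 0.419% over 35 of BMD and 1.23% over 261 of DMD. BMD stood above WT by 0.46 on the log2 scale (0.18 to 0.74) and DMD by 2.01 (1.81 to 2.21). The share of UMIs from the mitochondrial genome moved with it, at 1.05%, 1.65% and 6.41%, and its part in the result was not tested. Without nuclei over 5% mitochondrial UMIs, DMD stood above WT by 0.55. By depth, the RP share was 0.470%, 0.599% and 1.52% in nuclei under 2000 UMIs. It was 0.272%, 0.605% and 0.819% at 2000 to 4000 UMIs (6, 1 and 14 nuclei). Over 4000 UMIs (7, 3 and 8 nuclei) it was 0.226% (0.179 to 0.281), 0.0935% (0.0534 to 0.152) and 0.199% (0.159 to 0.247). There neither mutant library stood above WT. Such nuclei held 35033 of the 71605 WT UMIs and 42151 of the 280890 DMD UMIs. By the cardiomyocyte markers, free RNA was estimated at 67.5% to 100% of the UMIs of this class, with the WT estimate capped at 100%. That much free RNA would alone give RP shares of 1.63%, 0.542% and 1.24%, above the share found in each library. The estimate is thus unreliable here, and no value with free RNA subtracted was possible. The cardiomyocyte markers summed to 15907, 11173 and 9178 CPM there, and the monocyte markers to 7053, 26287 and 22771 CPM. Rpl41, a short large subunit protein, stood at 196, 292 and 1125 CPM in this class, and Rps9 at 97.8, 292 and 246 CPM.

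Free RNA was the RP-rich fraction of each library. RP genes made up 1.63%, 0.802% and 1.44% of it (25739, 5087 and 10227 UMIs). All nuclei over free RNA gave log2 ratios of -1.78 (WT, -1.80 to -1.76), -1.52 (BMD, -1.57 to -1.48) and -1.70 (DMD, -1.73 to -1.67). Of the 57 members with at least 50 UMIs in both fractions, 57, 56 and 57 were lower in nuclei, against 4311, 4631 and 4177 of all 8690 such genes. The order of the libraries in free RNA, WT over DMD over BMD, was also that of the nuclei in 6 classes. The order of WT and DMD in free RNA depends on the cutoff of 50 UMIs. With at most 20 UMIs the WT ratio of all nuclei over free RNA was -1.45, while no setting took that of DMD above -1.677. The fractions were also unlike, with 1575674 UMIs on 361870 barcodes in WT, 633966 on 471751 in BMD and 709588 on 509584 in DMD. The free RNA contained in each class, estimated from markers of other classes, was 2.99%, 5.54% and 4.36% of cardiomyocyte-like UMIs, which corresponds to 26.7%, 29.8% and 42.3% of their RP UMIs. In fibroblast-like nuclei the same estimate gave 10.3%, 10.4% and 18.0% of RP UMIs, and in endothelial-like nuclei 17.8%, 15.2% and 23.3%.

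Members differed in how far they stood below free RNA. Those closest to it, by the library nearest 0 on the scale log2(CPM plus 5), included Rps10 (ENSRNOG00000000490), Rpl12, Rpl3l and Rps18. The members farthest below it included Rplp1, Rpl41, Rpl14 and Rpl18. Rplp1 had 151, 73.9 and 144 CPM in all nuclei and 677, 312 and 631 CPM in free RNA. Rpl41 had 306, 166 and 310.4 CPM in all nuclei and 1194, 672 and 1399 CPM in free RNA.

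The comparison of cardiomyocyte-like nuclei asks whether RP transcripts differ in the cells that dystrophin loss affects. The RP share was lower in both mutant libraries, by a log2 ratio over WT of -0.30 for BMD (-0.34 to -0.26) and of -0.30 for DMD (-0.35 to -0.26). The log2 ratio of DMD over BMD was -0.005 (-0.05 to 0.04). The difference was not the same at every depth. Nuclei under 2000 UMIs had RP shares of 0.247%, 0.186% and 0.229%, where the WT and DMD intervals overlapped. Nuclei with 2000 to 4000 UMIs had 0.185%, 0.139% and 0.153%, and those over 4000 UMIs 0.164%, 0.150% and 0.134%. Over 4000 UMIs were 512 of 2030, 694 of 1532 and 368 of 1066 nuclei. With the estimated free RNA subtracted, the log2 ratios over WT were -0.33 for BMD and -0.63 for DMD, and that of DMD over BMD was -0.30 (-0.36 to -0.24). Both ratios over WT use the same WT library. Over the class as a whole the members were split: of the 69 with at least 50 UMIs in this class, 40 were lower and 29 higher in BMD, with a median log2 ratio on CPM plus 5 of -0.03, and 42 were lower and 27 higher in DMD, with a median of -0.08. Over all 10132 genes with at least 50 UMIs the medians were -0.04 and -0.02, and 5657 and 5387 were lower. In BMD, 12 members were at least 1.5-fold lower, against 4.97% of all genes, and 2 were at least 1.5-fold higher, against 4.61%. In DMD, 11 members were at least 1.5-fold lower and 2 higher, against 6.11% and 6.16% of all genes. The 24 members under 50 UMIs entered none of these counts.

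The cardiomyocyte-like class was not made up alike in the 3 libraries. At a Leiden resolution of 1 it fell into a cluster led by Lsamp and Ky, with 1843, 551 and 532 nuclei, and one led by Xirp2 and Hs3st2, with Nppa, Nppb and Acta1, genes known to rise in stressed myocardium, among its leading 10. This second cluster held 181, 971 and 523 nuclei. Its RP share was the higher one in each library, at 0.304%, 0.173% and 0.163%, beside 0.169%, 0.0975% and 0.129% in the Lsamp-led cluster. Within both clusters the mutant shares were farther below WT than in the whole class. The log2 ratio of BMD over WT was -0.80 (-0.87 to -0.73) in the Lsamp-led and -0.82 (-0.89 to -0.75) in the Xirp2-led cluster, and that of DMD over WT was -0.39 (-0.45 to -0.32) and -0.90 (-0.98 to -0.82). Within clusters most members were lower: of the 69, 55 in BMD and 45 in DMD in the Lsamp-led cluster, with median log2 ratios of -0.37 and -0.09, and 64 and 62 in the Xirp2-led cluster, with medians of -0.59 and -0.66. Of the same 10132 genes, 5956 and 5450 were lower in the Lsamp-led cluster, with medians of -0.06 and -0.03, and 6081 and 5980 in the Xirp2-led cluster, with medians of -0.10 in both. The values of the whole class below therefore mix the level within clusters with the share of each cluster. The comparison within clusters was chosen after seeing the data.

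The members at least 1.5-fold lower in both mutant libraries were Rpl35, Rpl37a, Rps28, Rpl34, Rpl24, Rpl23a, Rpl23 and Rps7. Both ratios use the same WT library, and the share of all genes lower in both is not given here. Together these 8 summed to 439, 191 and 218 CPM, and the other 85 rows to 1397, 1299 and 1268 CPM. The 8 were chosen by these values, so the sums, and their contrast with fibroblast-like nuclei below, are a description. In fibroblast-like nuclei the same 8 summed to 1390, 653 and 1060 CPM, which was 19.5%, 17.3% and 19.8% of RP UMIs, while in cardiomyocyte-like nuclei their part was 23.9%, 12.8% and 14.7%.

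Rpl35, a large subunit protein close to the exit of the peptide tunnel, had the lowest ratio. Cardiomyocyte-like nuclei held 492, 125 and 94 UMIs of Rpl35, which is 77.5 CPM (70.8 to 84.7) for WT, 18.8 CPM (15.6 to 22.3) for BMD and 24.2 CPM (19.6 to 29.7) for DMD. The WT interval lay above both others, and the BMD and DMD intervals overlapped. Its log2 ratio over WT was -2.05 for BMD (-2.33 to -1.76) and -1.68 for DMD (-1.996 to -1.36). It was lower in mutant libraries at every depth: nuclei under 2000 UMIs had 107, 24.3 and 34.4 CPM, nuclei with 2000 to 4000 UMIs 77.7, 15.6 and 27.2 CPM, and nuclei over 4000 UMIs 68.7, 19.6 and 20.9 CPM. Rpl35 was found in 394 of 2030, 90 of 1532 and 79 of 1066 nuclei, with medians of 2761.5, 3769 and 3248.5 UMIs per nucleus. In BMD, 1 nucleus held 11 of the UMIs.

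Rpl35 was lower in BMD in other classes too, by less. Its log2 ratio of BMD over WT was -0.997 (-1.23 to -0.76) in fibroblast-like nuclei, -0.79 (-1.10 to -0.47) in endothelial-like nuclei, and -1.45 (-1.76 to -1.15) in free RNA. For DMD the values were -0.52 (-0.71 to -0.33), -0.01 (-0.28 to 0.26) and -0.66 (-0.90 to -0.43). The level in free RNA was 415, 151 and 262 CPM. With the estimated free RNA subtracted, the cardiomyocyte-like ratio was larger, at -2.61 for BMD and -2.33 for DMD. In the Lsamp-led cluster Rpl35 stood at 75.7 CPM (68.7 to 83.2), 5.81 CPM (from 12 UMIs, with an upper bound of 10.2) and 22.6 CPM (16.1 to 30.8), and in the Xirp2-led cluster at 95.5 CPM (73.4 to 122), 24.2 CPM (19.9 to 29.1) and 25.5 CPM (19.1 to 33.3), so WT was above both mutant libraries within each.

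By level in WT, lymphatic-like nuclei had the most Rpl35 at 232 CPM (169 to 312), followed by fibroblast-like (140), endothelial-like (138), T or B cell-like (120), S100a9-led (112), macrophage-like (109), pericyte or smooth muscle-like (94.0) and cardiomyocyte-like nuclei (77.5). The intervals of neighbours in this order overlapped, except between lymphatic-like and fibroblast-like nuclei. These levels include free RNA, which in WT had more Rpl35 than any class. It was estimated at 2.99% of cardiomyocyte-like, 28.2% of macrophage-like and 44.1% of T or B cell-like UMIs in WT. The order of the classes without free RNA was not computed in any library. In BMD the cardiomyocyte-like level of 18.8 CPM was also the lowest, below 44.0 CPM (27.9 to 66.0) in pericyte or smooth muscle-like nuclei and 57.3 to 104 CPM elsewhere. In DMD it was 24.2 CPM, below 60.6 CPM (42.5 to 83.9) in pericyte or smooth muscle-like nuclei and 84.0 to 267 CPM elsewhere.

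Rpl37a, a large subunit protein, followed Rpl35. It stood at 79.7 CPM (72.9 to 87.0), 26.3 CPM (22.5 to 30.5) and 41.5 CPM (35.3 to 48.4), with log2 ratios over WT of -1.60 and -0.94, and none of the 3 intervals overlapped. Rps28, a small subunit protein, stood at 48.7, 16.4 and 24.5 CPM, with log2 ratios of -1.57 and -0.99. Both were lower in BMD than in DMD, by a log2 DMD over BMD ratio of 0.66 (0.35 to 0.97) for Rpl37a and 0.58 (0.19 to 0.98) for Rps28. Rpl34 stood at 29.3, 14.4 and 11.3 CPM, with log2 ratios of -1.02 and -1.37, and Rpl24, which bridges to the small subunit, at 79.6, 46.7 and 46.9 CPM, with -0.77 and -0.76. Rpl23a had 17.2, 8.70 and 7.99 CPM, Rpl23 58.0, 34.5 and 32.7, and Rps7 48.5, 25.7 and 28.9. In free RNA these members were lower in BMD as well (log2 ratios of -1.69 for Rpl37a, -1.56 for Rps28, -1.25 for Rpl34 and -1.21 for Rpl24), and closer to WT in DMD (-0.22, -0.38, -0.33 and -0.26).

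**Figure D2:**
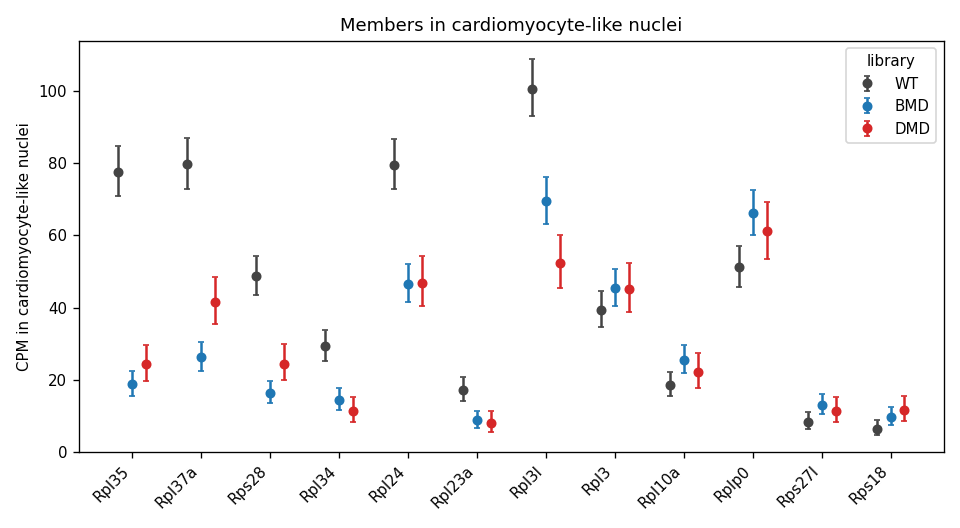
CPM of RP genes in cardiomyocyte-like nuclei (y axis) for the 6 members with the lowest ratios over WT, the pair Rpl3l and Rpl3, and 4 of those with the highest (x axis), with 1 point per library and bars for the exact Poisson 95% interval. WT stands above both mutant libraries for Rpl35 and below both for Rplp0.

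Other members were higher in the mutant libraries over the class as a whole. Among those ranked highest were Rps18, at 6.46, 9.75 and 11.6 CPM, Rps27l, at 8.35, 13.1 and 11.3 CPM, Rplp0, at 51.2, 66.2 and 61.1 CPM, and Rpl10a, at 18.6, 25.5 and 22.2 CPM. Rplp0, the anchor of the stalk, had log2 ratios of 0.37 (BMD, 0.16 to 0.58) and 0.25 (DMD, 0.01 to 0.50). Within the clusters Rplp0 was not higher in the mutant libraries beyond counting error. Rplp0 stood at 46.0, 45.5 and 51.4 CPM in the Lsamp-led cluster, with overlapping intervals, and at 95.5, 74.9 and 69.7 CPM in the Xirp2-led cluster, with log2 ratios of -0.35 (-0.74 to 0.04) and -0.45 (-0.88 to -0.03). Rps18 and Rps27l were below WT in both mutant libraries within the Xirp2-led cluster, which had 181 WT nuclei. Their log2 ratios there were -0.79 and -0.66 for Rps18 and -0.36 for Rps27l in each, whose intervals included 0. Their values in the Lsamp-led cluster are not given here. In fibroblast-like nuclei Rplp0 was lower in both, at 412, 198 and 248 CPM, with log2 ratios of -1.06 and -0.73.

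Rpl3l, the muscle paralogue of the large subunit core protein Rpl3, was the only member at least 1.5-fold higher in cardiomyocyte-like than in other nuclei of each library. It had 101 CPM (93.0 to 109), 69.5 CPM (63.3 to 76.1) and 52.3 CPM (45.4 to 60.1) there, and 1.28, 4.77 and 1.20 CPM in fibroblast-like nuclei. BMD over WT was -0.54 (-0.71 to -0.36) on the log2 scale, DMD over WT was -0.94 (-1.17 to -0.72), and that of DMD over BMD was -0.41 (-0.65 to -0.17). The 3 libraries were thus apart by more than counting error over the whole class, in the order WT, BMD, DMD. The Lsamp-led cluster had the same order, at 105 CPM (96.5 to 114), 78.0 CPM (66.4 to 91.0) and 53.1 CPM (42.9 to 65.0). The Xirp2-led cluster had 66.7 CPM (48.5 to 89.6), 66.4 CPM (59.1 to 74.3) and 52.0 CPM (42.6 to 62.7), and there the intervals overlapped. Rpl3 stood at 39.4 CPM (34.7 to 44.6), 45.3 CPM (40.4 to 50.7) and 45.1 CPM (38.7 to 52.3), with overlapping intervals. In the Lsamp-led cluster it stood at 31.7, 29.1 and 32.2 CPM, with log2 ratios of -0.13 (-0.55 to 0.29) and 0.02 (-0.41 to 0.45). Within the Xirp2-led cluster it was lower in the mutant libraries, at 105 (from 69 UMIs in 181 WT nuclei), 52.7 and 56.3 CPM. The log2 ratios there were -0.99 (-1.37 to -0.60) and -0.89 (-1.32 to -0.47). Of the UMIs of the pair over the whole class, Rpl3l held 71.9% (68.8 to 74.8, Clopper-Pearson), 60.5% (57.0 to 64.0) and 53.7% (48.5 to 58.8). The WT interval lay above both others, and the BMD and DMD intervals overlapped. Inside the clusters the order differed. In the Xirp2-led cluster Rpl3l and Rpl3 had 44 and 69 UMIs in WT, 302 and 240 in BMD, and 108 and 117 in DMD. The part of Rpl3l was thus lowest in WT there. In the Lsamp-led cluster the counts were 594 and 180, 161 and 60, and 94 and 57, so WT had the highest part. Free RNA had Rpl3l at 55.2, 71.0 and 42.3 CPM, with intervals that overlapped between WT and each mutant library. In fibroblast-like nuclei Rpl3 was lower, at 200.4, 109 and 160 CPM. Leaving Rpl3l out of the members moved the log2 ratio of the cardiomyocyte-like RP share from -0.30 to -0.29 in BMD and from -0.30 to -0.28 in DMD.

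**Figure D3:**
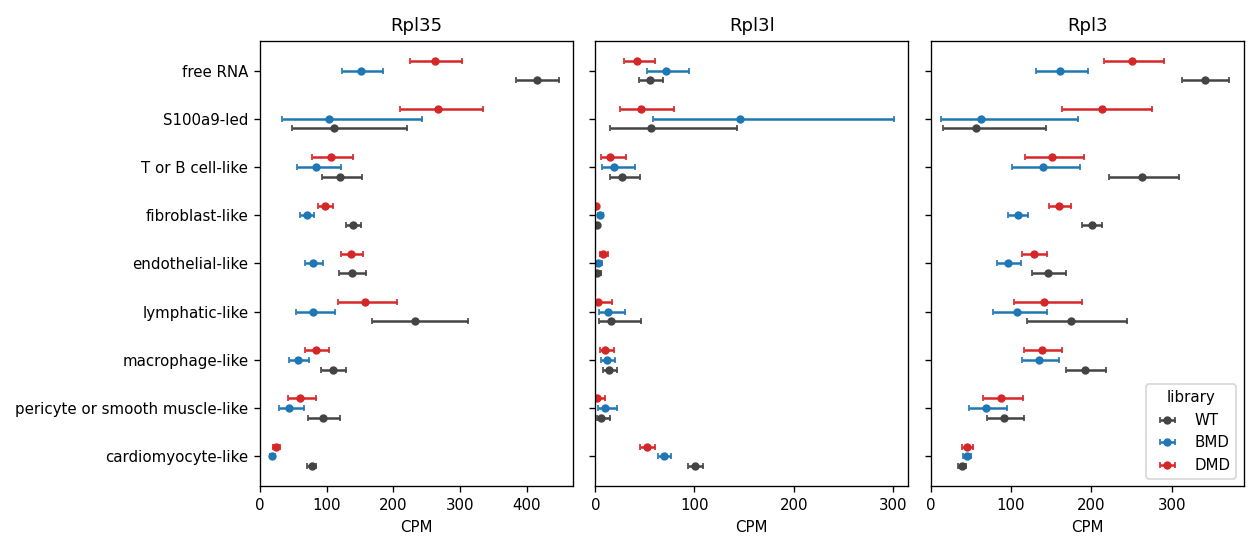
CPM (x axes, a scale for each gene) of Rpl35, Rpl3l and Rpl3 in 7 named classes of nuclei, the S100a9-led cluster and free RNA (y axis), with 1 point per library and bars for the exact Poisson 95% interval. Among the classes Rpl3l is highest in cardiomyocyte-like nuclei, except for the 7 UMIs of the S100a9-led nuclei of BMD, and free RNA of BMD is level with it at 71.0 CPM. Among the classes Rpl35 is lowest in cardiomyocyte-like nuclei, by levels without subtraction of free RNA.

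The other paralogues are given for cardiomyocyte-like nuclei. Rpl22l1 stood at 23.6, 14.1 and 17.8 CPM in this class, with log2 ratios of -0.74 (-1.12 to -0.37) and -0.41 (-0.82 to 0.00). Rps27, the parent of Rps27l, stood at 61.6, 37.1 and 40.0 CPM, with log2 ratios of -0.73 and -0.62, while Rps27l was at 0.64 (0.15 to 1.14) and 0.44 (-0.13 to 1.02). Rpl7l1 had 8.51, 7.65 and 7.74 CPM beside 35.9, 35.7 and 37.9 for Rpl7, with log2 ratios of -0.15 and -0.14 for Rpl7l1 and -0.01 and 0.08 for Rpl7, whose intervals all included 0. Rpl26 had 9.77, 12.8 and 11.1 CPM. Rpl10l, 14 UMIs over all nuclei, was too sparse to compare with Rpl10, which had 50.1, 55.7 and 53.9 CPM.

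Members with roles beyond the ribosome or in its stalk are given by level. Rpl5 and Rpl11, which bind the 5S RNA and, when free, MDM2, had 23.0, 22.5 and 21.4 CPM and 47.0, 41.0 and 31.5 CPM in cardiomyocyte-like nuclei. Rpsa, the small subunit protein also known as the laminin receptor, had 44.6, 56.4 and 42.8 CPM there, and 425, 197 and 242 CPM in fibroblast-like nuclei. Rps27a, made as a fusion with ubiquitin, stood on 2 rows, with 5.52, 8.55 and 6.45 CPM on the row with more UMIs in this class. Rplp1, a stalk protein, had 33.7, 17.7 and 27.6 CPM, with log2 ratios of -0.93 (-1.25 to -0.61) and -0.29 (-0.62 to 0.05), and was the member lowest in cardiomyocyte-like relative to all other nuclei.

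In fibroblast-like nuclei the lower share ran through most members. Of the 69 with at least 50 UMIs, 60 were lower in BMD, with a median log2 ratio of -0.68, and 57 in DMD, with a median of -0.26, against 5951 and 5602 of all 10592 genes, with medians of -0.05 and -0.02. In BMD 39 members were at least 1.5-fold lower (6.42% of all genes) and 0 higher (4.42%), and in DMD 9 were lower (2.97%) and 0 higher (3.74%). The order WT over DMD over BMD held in 49 of the 69 members (71.0%), against 24.1% of all genes. In cardiomyocyte-like nuclei it held in 21 of 69 (30.4%), against 19.7%. The members highest in fibroblast-like over all other nuclei were Rpl10, Rplp0 and Rps7, with 178, 412 and 243 CPM in WT. Fibroblast-like nuclei too were not made up alike in the libraries. At a Leiden resolution of 1, a cluster led by Ccn5 and Ltbp2 held 85, 473 and 410 nuclei, and one led by Abca8a and Aox3 held 1566, 406 and 559. Ratios within such clusters were not computed, so these values can mix level with the share of each cluster.

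In endothelial-like nuclei BMD stood apart and DMD lay close to WT. Of 56 members with at least 50 UMIs, 51 were lower in BMD, with a median log2 ratio of -0.53, and 25 of them at least 1.5-fold (6.25% of all genes), with 1 at least 1.5-fold higher (4.03%). In DMD 32 were lower and 24 higher, with a median of -0.03. Of all 8934 genes 4902 were lower in BMD and 4551 in DMD, with medians of -0.04 and -0.01. In DMD 0 members were at least 1.5-fold lower (3.04%) and 1 higher (4.28%). The total share had log2 ratios of -0.70 (BMD, -0.74 to -0.65) and -0.05 (DMD, -0.09 to -0.02), and in nuclei with at least 1000 UMIs the DMD value was -0.0026 (-0.06 to 0.05). The members highest in this class relative to other nuclei included Rps4y2 and Rps28, and Rps28 stood at 246, 133 and 271 CPM.

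In the smaller classes the medians of BMD over WT were -0.73 over 37 members in pericyte or smooth muscle-like nuclei, -0.80 over 51 in macrophage-like, -0.66 over 43 in T or B cell-like and -0.50 over 35 in lymphatic-like nuclei. The medians of DMD over WT were -0.17, -0.37, -0.23 and -0.26. T or B cell-like nuclei were led, relative to all other nuclei, by Rps15, Rps3 and Rps7, with Rps15 at 334, 189 and 236 CPM. Macrophage-like nuclei were led by Rpl18, Rps9 and Rplp0, with Rplp0 at 454, 190.5 and 228 CPM, and lymphatic-like nuclei by Rps28, Rpl35 and Rpl41, with Rpl41 at 464, 327 and 461 CPM. Free RNA made up an estimated 24.2% to 32.5% of the UMIs of macrophage-like and 29.8% to 44.1% of those of T or B cell-like nuclei. That corresponds to 70.4%, 54.4% and 100.6% of macrophage-like RP UMIs, and 84.1%, 46.4% and 67.0% of T or B cell-like ones. The same estimate gave 67.4%, 14.8% and 65.5% of lymphatic-like and 36.9%, 35.8% and 54.2% of pericyte or smooth muscle-like RP UMIs. With free RNA subtracted, the T or B cell-like log2 ratios turned to 0.70 in BMD and 0.46 in DMD. The lymphatic-like ratio of BMD turned to 0.64, from -0.43. With the same subtraction the macrophage-like ratio of BMD was -0.33, from -0.87, and the pericyte or smooth muscle-like ratio of DMD -0.61, from -0.21.

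The T or B cell-like class joined 2 clusters. One was led by Clnk, Klri1, Prf1, Ccl5 and Klrd1, among them genes known from natural killer cells, with 258, 72 and 169 nuclei, and the other by Themis, Lef1, Skap1 and Bcl11b, known from T cells, with 185, 189 and 169. The RP share was 0.769%, 0.394% and 0.495% in the Clnk-led cluster and 0.999%, 0.589% and 0.907% in the Themis-led cluster. Both had the order WT over DMD over BMD, with log2 ratios over WT of -0.96 and -0.64 in the first, and of -0.76 and -0.14 (-0.23 to -0.05) in the second.

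Free RNA itself differed between libraries. Of 57 members with at least 50 UMIs, 53 were lower in BMD than in WT, against 4532 of 8690 genes, and 46 in DMD, against 4339. The members' median log2 ratios were -0.98 and -0.25, and those of all genes -0.02 and 0.00. The mitochondrial genome made up 3.23%, 5.41% and 8.58% of free RNA, and 0.244%, 0.397% and 0.486% of cardiomyocyte-like UMIs. With mitochondrial genes left out of the totals, the cardiomyocyte-like ratios kept their direction. The part of free RNA in the differences between libraries, beyond the subtraction above, was not tested.

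**Figure D4:**
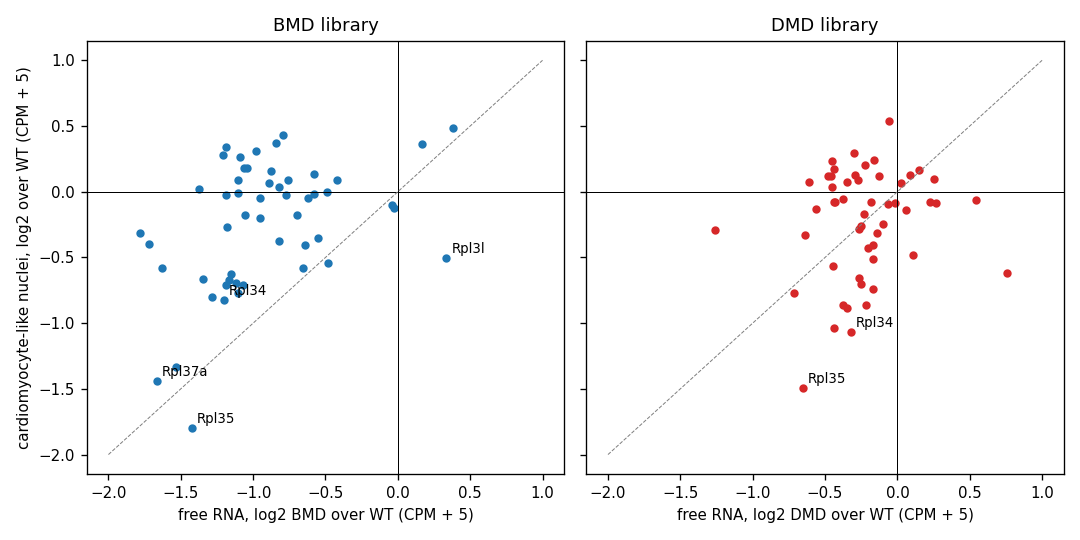
Log2 ratio over WT, on CPM plus 5, in free RNA (x axes) and in cardiomyocyte-like nuclei (y axis) for 52 RP genes with at least 50 UMIs in both, for BMD on the left and DMD on the right. The dashed line marks equal ratios, 47 points lie above it in BMD and 25 in DMD, and Rpl35 has the lowest cardiomyocyte-like ratio in both panels. The share of all genes above this line is not given here, so the counts describe the plotted members only.

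Other genes tied to ribosomes are given as medians in cardiomyocyte-like nuclei, the list of each fixed by function. Ribosome biogenesis genes (39 of 39 with at least 50 UMIs) had median log2 ratios of 0.08 in BMD and 0.04 in DMD, with 26 and 22 higher. Rrp12, a factor of ribosomal RNA maturation, stood at 29.5, 69.8 and 26.0 CPM. Other TOP genes (13 of 14) had medians of 0.04 and 0.13, and Eef1g, an elongation factor subunit, stood at 67.0, 108 and 91.0 CPM. The mTORC1 and TOP regulators (16 of 16) had medians of -0.11 and 0.05. Among them Myc, an activator of ribosome production, had 4.73, 17.6 and 12.6 CPM, Deptor, an mTOR inhibitor, had 102, 78.0 and 50.02 CPM, and Larp1, which binds the TOP motif, had 118, 111 and 128 CPM. Mitochondrial ribosomal proteins (70 of 76) had medians of 0.05 and -0.01. Of the ribosomal components with other names, a Rack1 row (ENSRNOG00000052620) had 24.0, 26.3 and 27.1 CPM, Rpl36al had 32 UMIs in all, and Fau and the other Rack1 row were listed at 0. The 13 genes of the mitochondrial genome had medians of 0.64 and 0.84.

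The genes whose level followed Rpl35 most closely over 24 points (7 named classes and the S100a9-led cluster in 3 libraries, on log2 of CPM plus 5) were Rpl24 (Pearson r of 0.93), Rps27 (0.89), Rpl37a (0.89), Rpl41 (0.88) and LOC100361854 (0.88), among 13358 genes with at least 50 UMIs. Members made up 10 of the 20 closest. The points share libraries, depth and free RNA, so the correlations are descriptions.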

How the data were processed

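Nuclei of the heart apex from 1 WT, 1 BMD and 1 DMD library were measured with the 10x Genomics 3′ kit, though a results text of the study names a 5′ technology. The authors counted UMIs per gene with Cell Ranger, and the deposited values are UMI counts. Build rn6 is from the submitters' processing notes, and whether introns were counted is not given in the sources used here. The WT table turned out to combine the 3 libraries, whose BMD and DMD barcodes matched the separate files exactly. WT was the remaining barcode suffix, and BMD and DMD were read from their own files. Of the UMIs in those files, the combined table kept 76.1% for BMD and 92.9% for DMD. WT came from this thinned table alone, and whether its own counts were thinned is not known. The file headers name Cell Ranger 6.0.1 for the aggregate and 4 for the others, so a counting difference between WT and the mutants cannot be told apart from genotype.

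Barcodes were ranked by UMIs and as many kept as the study gives nuclei for that library, with no doublet or mitochondrial filter. Counts were scaled to 10000 per nucleus and clustered with scanpy 1.11.5 and igraph 0.11.9 (2000 variable genes, 30 principal components, 15 neighbours, Leiden resolution 0.5), leaving out RP, mitochondrial and sex genes. Genes that the study itself names (Nppa, Nppb, Tmem65, Myh6, Myh7, Ryr2, Gja1 and Dmd) were left out of the clustering too. A class name needed 3 markers with CPM plus 5 at least 2 times that of other nuclei. Rules that left mixed or weakly marked clusters unnamed were set after the clusters were seen, as was the choice to call the S100a9-led cluster by its leading gene. UMIs were summed per class and library, and fold changes are without a pseudocount or, for lists and rankings, on log2(CPM plus 5). Poisson and Clopper-Pearson intervals came from scipy 1.17.1. The counting functions were tested on simulated data. With 1 library per genotype no test was run.

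The members and gene lists were chosen with earlier results of these data known. Genes were named by these rules: Rpl35, paralogues with their parents, roles, the 6 highest and lowest ratios in cardiomyocyte-like nuclei with at least 100 UMIs, the 10 members with most UMIs, the 3 highest and the lowest in each class, and the 5 highest and lowest over free RNA. Rpl23, Rps7 and genes of the other lists were named after their values were seen. Rps19, Rpl22 and Rpl26l1 had no row under these symbols and were not analysed here. Some items that these rules name are not reported here, and the 2 plots of single members leave them out.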

Additional observations from a re-analysis of the deposited data

Results flagged for a closer look

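The RP share of the S100a9-led nuclei was singled out because it went against the other classes. BMD stood above WT by 0.461 on the log2 scale (0.18 to 0.74) and DMD by 2.012 (1.81 to 2.21), while the other 7 classes were below 0 in both comparisons, each beyond its counting interval. This contrast is for values without subtraction of free RNA. With it subtracted, the T or B cell-like ratios (0.70 in BMD, 0.46 in DMD) and the lymphatic-like BMD ratio (0.64) were above 0. The S100a9-led ratios then had no value, nor did that of DMD in macrophage-like nuclei. The difference between classes was not tested, since each genotype had 1 library. The cluster held 34, 35 and 261 nuclei of WT, BMD and DMD, and its mitochondrial share had the same order. In its nuclei over 4000 UMIs neither mutant library stood above WT, with RP shares of 0.226%, 0.0935% and 0.199%.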

How the results depend on the processing

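Of 479 values recomputed under alternatives, those below moved by more than counting error among the main results or changed direction among the others. The cause was not tested. With free RNA subtracted, the log2 RP share ratio of DMD over WT was -0.63 in cardiomyocyte-like, -0.51 in fibroblast-like and -0.10 in endothelial-like nuclei, the endothelial-like BMD ratio was -0.64, the cardiomyocyte-like median of DMD was -0.17, and Rpl35 was -2.61 (BMD) and -2.33 (DMD). This subtraction reversed the T or B cell-like ratios, to 0.70 (BMD) and 0.46 (DMD), and the lymphatic-like ratio of BMD, to 0.64. It gave no value for DMD in macrophage-like or either comparison in S100a9-led nuclei. Without nuclei over 5% mitochondrial UMIs, the fibroblast-like ratios were -0.98 and -0.51 and the endothelial-like ones -0.85 and -0.22 (BMD, DMD). Nuclei with at least 1000 UMIs gave endothelial-like ratios of -0.65 and -0.0026. A Leiden resolution of 1 gave fibroblast-like ratios of -0.88 and -0.45, and TMM scaling an endothelial-like BMD ratio of -0.65. Thinned counts of the aggregate gave a cardiomyocyte-like BMD median of -0.0889. The ratio of all nuclei over free RNA (WT, BMD, DMD) was -1.90, -1.59 and -1.83 at 1000 UMIs or more, -1.955, -1.72 and -2.0 without nuclei rich in mitochondrial UMIs, -1.80, -1.58 and -1.80 without mitochondrial genes, and, for WT, -1.45 against barcodes of at most 20 UMIs. Within the Lsamp-led and Xirp2-led clusters of cardiomyocyte-like nuclei, the RP share ratio was -0.80 and -0.82 for BMD and -0.39 and -0.90 for DMD, the median was -0.37 and -0.59 for BMD and, in the Xirp2-led cluster, -0.66 for DMD, and Rpl35 was -3.70 for BMD in the Lsamp-led cluster. Ratios that turned below 0 included those of Rplp0 for BMD in the Lsamp-led cluster (-0.016) and, in the Xirp2-led cluster, of Rplp0 (-0.35 for BMD, -0.45 for DMD), Rps18 (-0.79, -0.66), Rpl10a (-0.52 for BMD) and Rps27l (-0.36 for BMD and for DMD). The lowest DMD ratio of Rpl10a over all settings was -0.74. Among the other results 52 values moved, 10 reversed and 293 stayed within counting error. Removing Scrublet doublets took the pericyte or smooth muscle-like ratio of DMD to -0.02. Leaving out Rpl3l and the comparisons within clusters were chosen after seeing the data. No paired analysis was possible because each genotype had 1 library.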
